A study of Mus musculus with 15 samples.

Results

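Glucose is made, released, stored and broken down in the hepatocyte, and 8 genes at the control points of these routes were followed in mouse liver. They were the 8 symbols Pck1, G6pc, Fbp1, Pcx, Ppargc1a, Pklr, Slc2a2 and Gys2, taken by name from the 24499 genes counted in each of 15 libraries. All 8 were found, and all 8 were among the 14778 genes that passed the filter on low counts. Messenger RNA of the whole liver was sequenced, and the mice were adult males of strain C57BL/6. Some arms received carbon tetrachloride (CCl4), a solvent made toxic by liver cytochrome P450, at 0.2 ml/kg, 2 times a week for 6 weeks. The arm without CCl4 is named OO in the labels, which do not spell the name out. CCl4 animals taken at day 20 then received 0.5 of that dose, and ethanol was raised to 25 g/kg per day over 3 weeks through a gastric tube. The labels place a high-fat diet with ethanol and chow with the controls, so the effects of ethanol and of diet cannot be told apart. The labels do not say whether animals were fed or fasted when livers were taken.

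The groups were OO at day 0 (libraries 1 and 2), CCl4 at day 0 (libraries 3 and 4), and at day 20 OO with chow (library 12), OO with ethanol (libraries 13, 14 and 15), CCl4 with chow (libraries 16 and 17) and CCl4 with ethanol (libraries 18, 19 and 20). At day 23, in a different substudy of the labels, there was 1 OO library with chow (library 5) and 1 with ethanol (library 6). Numbers are those of the labels, which do not say that each library is a separate animal. A p-value therefore speaks of the spread among these libraries, which may be technical. Counts in genes ran from 10347844 to 28843258 per library. Summed hepatocyte markers lay between 113023 and 164973 CPM (counts scaled to a common library total) in all libraries, so the tissue matched its label. Summed exocrine pancreas markers stood at 209.5 CPM in library 6 and 209.4 CPM in library 12, against 6.31 to 14.6 CPM in the others. Library 12 was the single chow control for OO animals at day 20. In whole liver, fewer cells of a type and less RNA per cell cannot be told apart.

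Gluconeogenesis turns lactate, glycerol and amino acids into glucose. Pyruvate carboxylase (Pcx) and cytosolic phosphoenolpyruvate carboxykinase (Pck1) bypass the pyruvate kinase step, fructose-1,6-bisphosphatase (Fbp1) bypasses phosphofructokinase, and the catalytic subunit of glucose-6-phosphatase (G6pc) frees glucose. Liver pyruvate kinase (Pklr) runs the last step of glycolysis in the opposite direction, Slc2a2 encodes the glucose transporter GLUT2, and Gys2 encodes the liver glycogen synthase. In fasting, glucagon raises cyclic AMP, which through CREB activates Pck1 and the coactivator gene Ppargc1a, whereas glucose acts through the factor ChREBP on Pklr.

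The start site regions of the genes on which the results turn are shown first, since they hold short motifs of these pathways. RefSeq windows of GRCm38.p6, each 300 bases long and mostly upstream of the start site, matched 7 of the 8 genes, and Gys2 had none. Both strands were searched for CGTCA (core of the cyclic AMP response element), GTTAAT (core of HNF1 sites), AGGTCA (core of nuclear receptor sites), CACGTG (E-box), TGTTTAC (forkhead factors) and CACGNNNNNNNNNCGTG (carbohydrate response element, the sequence that ChREBP binds). The last pattern was added after the windows had been read. Capitals mark the matches, all windows are written 5′ to 3′ on the strand of the gene, and positions count from the start site. Pck1 (chr2:173152823-173153122, plus strand) and Ppargc1a (chr5:51567676-51567975, minus strand) are shown because their levels were compared across libraries, and both held CGTCA, at position -90 and at position -49. Pklr (second start site, chr3:89136373-89136672, plus strand) and Slc2a2 (chr3:28697653-28697952, plus strand) are shown because their levels varied together. This second Pklr window held the carbohydrate response element at position -170 and Slc2a2 held AGGTCA at position -21. The window of the first Pklr start site, not shown, held AGGTCA at position -151. Fbp1 (chr13:62888233-62888532, minus strand), the gene that passed the test most often, held none of the 6 motifs.
Pck1: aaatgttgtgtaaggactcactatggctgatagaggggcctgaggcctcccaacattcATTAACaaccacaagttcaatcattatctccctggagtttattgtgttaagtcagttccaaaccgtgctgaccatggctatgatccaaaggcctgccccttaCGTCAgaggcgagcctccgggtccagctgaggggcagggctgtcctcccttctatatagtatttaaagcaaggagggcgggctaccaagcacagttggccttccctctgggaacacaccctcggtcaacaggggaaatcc
Ppargc1a: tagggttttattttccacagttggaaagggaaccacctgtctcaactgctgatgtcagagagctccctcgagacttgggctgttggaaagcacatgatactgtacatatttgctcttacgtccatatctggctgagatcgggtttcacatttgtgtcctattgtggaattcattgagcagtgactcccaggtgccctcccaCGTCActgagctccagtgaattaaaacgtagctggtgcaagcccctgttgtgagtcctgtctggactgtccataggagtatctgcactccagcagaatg
Pklr: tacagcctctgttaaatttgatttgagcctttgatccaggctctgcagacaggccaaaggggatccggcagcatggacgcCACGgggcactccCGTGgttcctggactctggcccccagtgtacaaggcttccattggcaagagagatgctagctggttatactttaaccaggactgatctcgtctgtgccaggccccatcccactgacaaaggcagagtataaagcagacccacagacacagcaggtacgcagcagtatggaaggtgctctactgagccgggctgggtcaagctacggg
Slc2a2: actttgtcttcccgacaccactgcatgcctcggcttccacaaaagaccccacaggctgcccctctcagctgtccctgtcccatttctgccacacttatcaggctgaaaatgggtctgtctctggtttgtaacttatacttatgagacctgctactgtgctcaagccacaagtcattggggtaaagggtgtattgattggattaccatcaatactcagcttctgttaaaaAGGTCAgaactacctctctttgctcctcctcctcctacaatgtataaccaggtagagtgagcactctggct
Fbp1: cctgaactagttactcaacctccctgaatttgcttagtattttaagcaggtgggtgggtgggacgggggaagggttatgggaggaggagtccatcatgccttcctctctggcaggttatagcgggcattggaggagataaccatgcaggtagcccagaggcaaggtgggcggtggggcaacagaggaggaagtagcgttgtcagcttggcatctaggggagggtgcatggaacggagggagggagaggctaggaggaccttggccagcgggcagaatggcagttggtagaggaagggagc
Of 32851 RefSeq mouse windows of this length, 20.8% held CGTCA, 16.3% held AGGTCA, 7.1% held GTTAAT (in capitals in its reverse form ATTAAC in the Pck1 window, at position -192), and 0.3% held the carbohydrate response element. A match describes the letters in the window and is not a measured binding site.

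On mm10, in the GENCODE M21 annotation, the plus strand carries Pck1 (chr2:173153048-173159273), G6pc (chr11:101367561-101377903), Pcx (chr19:4510472-4621752), Pklr (chr3:89136142-89146784) and Slc2a2 (chr3:28697903-28731359). The minus strand carries Fbp1 (chr13:62864753-62888282), Ppargc1a (chr5:51454250-51567726) and Gys2 (chr6:142422613-142473109). Counts are sums over each gene. Per kilobase of exon, Fbp1 and Pck1 had the highest levels of the 8 genes, with medians over the libraries of 581.8 and 531.4 CPM per kb. G6pc followed at 198.1, Pcx at 128.0, Pklr at 63.1, Gys2 at 49.6 and Slc2a2 at 40.0 CPM per kb. The coactivator gene Ppargc1a was far lower at 1.4 CPM per kb, with 73 to 500 reads per library. All levels, also those given above, are from CPM normalised by TMM scaling, and ± is the SD between libraries of a group.

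**Figure D1:**
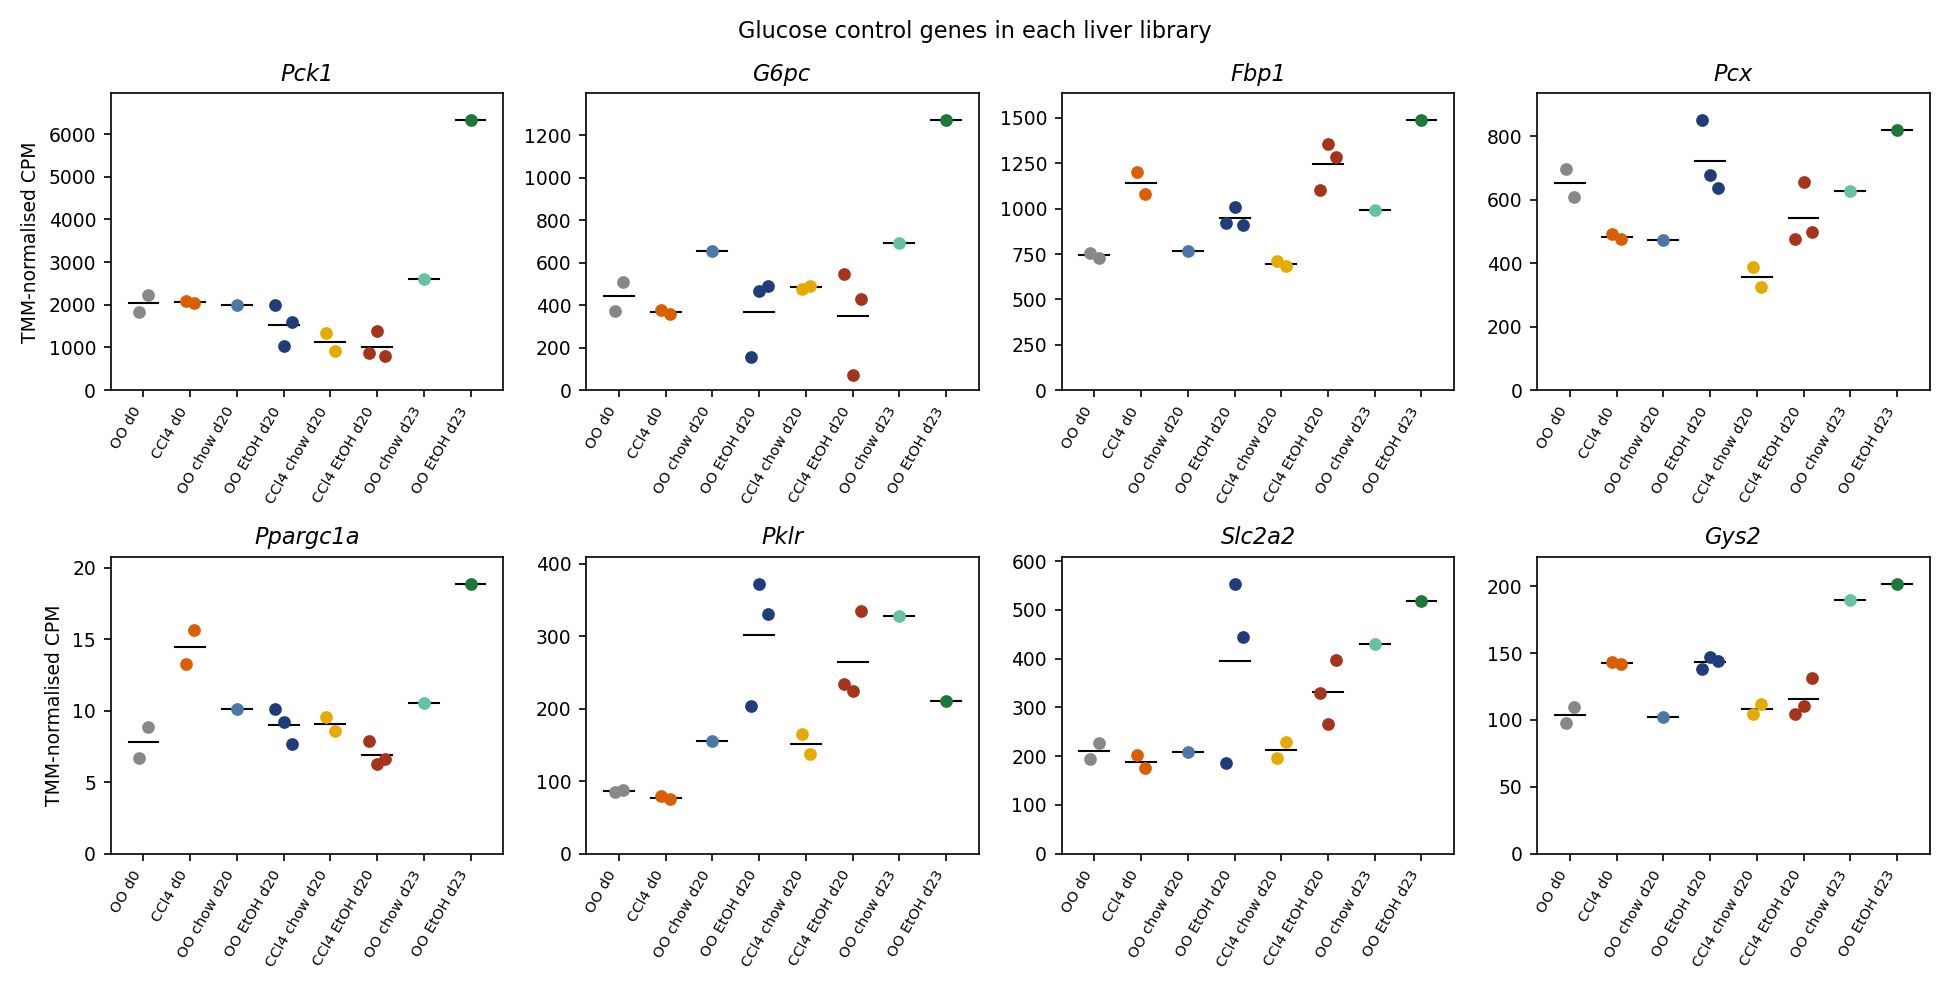
TMM-normalised CPM (y axis, linear and from 0, a scale for each gene) of the 8 genes in the 8 groups (x axis, d0, d20 and d23 for the day). Points are libraries and lines are group means. The day 23 ethanol library stands highest for Pck1 at 6317.1 CPM, and for Pklr the 4 day 0 libraries, at 75.1 to 88.4 CPM, lie below all others.

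Pck1 levels were lower in CCl4 libraries at day 20 than at day 0 and were highest by far in 1 library. They were 1822.0 and 2238.0 CPM in OO and 2080.0 and 2033.5 CPM in CCl4 animals at day 0. At day 20 they were 2001.4 CPM in the OO chow library, 1984.8, 1032.9 and 1586.4 CPM with ethanol, 1342.5 and 928.2 CPM in CCl4 with chow, and 878.6, 1393.2 and 789.2 CPM in CCl4 with ethanol. The day 20 CCl4 groups, with or without ethanol, overlapped, and both lay below every day 0 library. At day 23 Pck1 stood at 2598.8 CPM with chow and at 6317.1 CPM with ethanol, the highest level and 2.43 times the next.

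G6pc, the enzyme that frees glucose from its phosphate, was the most uneven of the 8 genes. It stood at 373.1 and 509.2 CPM in OO and 377.1 and 356.7 CPM in CCl4 animals at day 0. At day 20 it stood at 653.2 CPM in OO with chow, at 155.7, 465.4 and 488.6 CPM in OO with ethanol, at 478.1 and 490.0 CPM in CCl4 with chow, and at 545.1, 71.5 and 430.7 CPM in CCl4 with ethanol. Libraries 13 and 19 were therefore low, while the other libraries of their groups stood at 430.7 to 545.1 CPM. Day 23 levels were 692.2 CPM with chow and 1269.3 CPM with ethanol, and the highest library held 17.8 times the level of the lowest.

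Fbp1 was among the steadiest genes within groups and separated several of them. It was at 756.5 and 730.6 CPM in OO and at 1200.9 and 1081.9 CPM in CCl4 animals at day 0. At day 20 it was at 766.5 CPM in OO with chow, at 920.5, 1008.2 and 908.2 CPM in OO with ethanol, at 713.7 and 681.5 CPM in CCl4 with chow, and at 1100.7, 1353.6 and 1282.9 CPM in CCl4 with ethanol. The CCl4 libraries with ethanol lay above all other day 20 libraries, and the CCl4 libraries with chow lay below them all. At day 23 it was at 990.2 CPM with chow and at 1485.6 CPM with ethanol.

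Pcx, which makes oxaloacetate from pyruvate in mitochondria, measured 695.9 and 608.5 CPM in OO and 492.0 and 475.2 CPM in CCl4 animals at day 0. Its day 20 levels were 473.2 CPM in OO with chow, 848.9, 676.9 and 634.9 CPM in OO with ethanol, 388.7 and 324.4 CPM in CCl4 with chow, and 475.5, 654.7 and 498.9 CPM in CCl4 with ethanol. The 2 CCl4 chow libraries were the lowest of all 15. At day 23 Pcx measured 628.2 CPM with chow and 819.5 CPM with ethanol. The annotation places Lrfn4 on the other strand within the Pcx gene, and the use of strand in counting is not given in the sources used here.

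Ppargc1a, the gene of the coactivator PGC-1alpha, was highest in CCl4 animals at day 0 and in the day 23 ethanol library. It was at 6.70 and 8.86 CPM in OO and at 13.3 and 15.6 CPM in CCl4 animals at day 0. Day 20 levels were 10.1 CPM in OO with chow, 10.1, 9.24 and 7.70 CPM in OO with ethanol, 9.58 and 8.56 CPM in CCl4 with chow, and 7.85, 6.25 and 6.65 CPM in CCl4 with ethanol. The day 20 groups with 2 or more libraries ranked CCl4 with chow, OO with ethanol and CCl4 with ethanol, and neighbours in that order overlapped. At day 23 it was at 10.5 CPM with chow and 18.9 CPM with ethanol.

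Pklr was the member that separated day 0 from the later days. Its 4 day 0 levels were 85.4 and 88.4 CPM in OO and 78.8 and 75.1 CPM in CCl4 animals. At day 20 the OO chow library stood at 155.9 CPM, the OO ethanol libraries at 204.3, 371.9 and 330.3 CPM, the CCl4 chow libraries at 164.7 and 137.4 CPM, and the CCl4 ethanol libraries at 234.1, 224.6 and 335.1 CPM. At day 20 every ethanol library was above every chow library. The day 23 pair stood the other way round, at 328.0 CPM with chow and 210.1 CPM with ethanol. Hcn3 overlaps the end of Pklr on the other strand, and without strand the reads of the shared stretch cannot be told apart.

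Slc2a2, the gene of the transporter that lets glucose in and out of the hepatocyte, resembled Pklr in most ethanol libraries of day 20 and had more spread. Its day 20 chow libraries did not stand apart from day 0 as those of Pklr did. Slc2a2 measured 194.3 and 227.4 CPM in OO and 202.3 and 175.1 CPM in CCl4 animals at day 0. Day 20 levels were 207.8 CPM in OO with chow, 185.9, 553.1 and 443.8 CPM in OO with ethanol, 196.5 and 230.0 CPM in CCl4 with chow, and 329.9, 265.6 and 397.5 CPM in CCl4 with ethanol. Library 13 was at the level of the chow libraries, and the other 5 ethanol libraries of day 20 were above them. At day 23 both libraries were high, at 429.2 CPM with chow and 518.7 CPM with ethanol. An antisense transcript, 1700112D23Rik, is annotated over Slc2a2, so its reads may be shared.

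Gys2, which links glucose into glycogen, had the narrowest range, with 2.06 times between the lowest and the highest library. It was at 98.0 and 110.0 CPM in OO and at 143.5 and 141.5 CPM in CCl4 animals at day 0. At day 20 it was at 102.0 CPM in OO with chow, at 138.3, 147.0 and 144.2 CPM in OO with ethanol, at 104.8 and 111.6 CPM in CCl4 with chow, and at 104.6, 110.7 and 131.7 CPM in CCl4 with ethanol. The 2 CCl4 groups of day 20 overlapped. The day 23 libraries were the highest, at 189.8 CPM with chow and 201.7 CPM with ethanol.

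The spread between libraries of a group differed widely among the 8 genes. On the log2 scale the SD within groups was 1.0 for G6pc, larger than in 99.5% of the 10088 genes with a mean of at least 5 CPM. It was 0.48 for Slc2a2, 0.38 for Pck1 and 0.31 for Pklr, larger than in 94.7%, 89.3% and 80.3% of genes. The median gene stood at 0.20, as did Pcx, and Ppargc1a at 0.19. Gys2 at 0.11 and Fbp1 at 0.10 were among the steadier genes, so a change of a given size was easier to detect in them than in G6pc.

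The first comparison asked what CCl4 alone had done by day 0. Fbp1, Ppargc1a and Gys2 stood higher in the CCl4 libraries and Pcx and Pklr lower, without overlap between the groups, but none of the 8 genes passed the test. Across all genes tested, 2.06% were called in either direction at an adjusted p under 0.05 in edgeR's quasi-likelihood test. Ppargc1a came closest, with means of 14.4 against 7.78 CPM, a log2 change of 0.89 ± 0.21 (standard error, as for all log2 changes below) and an edgeR adjusted p of 0.0533. For Fbp1, at 1141.4 ± 84.1 against 743.5 ± 18.3 CPM (SD, n = 2 each), the log2 change was 0.62 ± 0.15 with an edgeR adjusted p of 0.06. The fit limited to these 4 libraries called these genes together with Gys2 (log2 change 0.45) and Pcx (-0.44), with edgeR adjusted p of 0.013, 0.00886, 0.0162 and 0.0321 in the order Ppargc1a, Fbp1, Gys2, Pcx. That fit called 2240 of all genes, against 304 in the fit of all libraries. At an unadjusted p under 0.05 edgeR counted, in the fit of all libraries, 3 of the 8 genes and 2518 of all 14778. Groups did not overlap in 5 of the 8 genes and in 59.6% of all genes tested, a similar share.

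Beside these genes, 2 of 25 genes of gluconeogenesis and pyruvate handling rose and 1 fell. Got1, a cytosolic aspartate aminotransferase, stood at 324.5 ± 9.86 CPM against 136.7 ± 16.6 CPM in OO (SD, n = 2 each) and rose 2.37-fold with an edgeR adjusted p of 0.00974. Pdk4, a kinase that switches off pyruvate dehydrogenase, rose 3.63-fold and the monocarboxylate transporter gene Slc16a1 fell by 0.80 on the log2 scale. None of 25 glycolysis enzymes, 18 genes of glycogen metabolism or 32 hormone and transcription control genes was called by edgeR. In the same comparison 2 of 13 periportal markers were higher and 4 of 13 pericentral markers lower, and summed pericentral markers ran from 3695.7 to 4138.6 CPM against 6672.0 to 7616.6 CPM in OO. Their part in the levels of the 8 genes was not tested. With a library left out, the call of Got1 was lost without library 2, 3 or 4, with edgeR adjusted p of 0.0963, 0.074 and 0.0899, and those of Pdk4 and Slc16a1 without any of the 4. The call of Pdk4 was also lost with RLE scaling (edgeR adjusted p 0.0502), without libraries 6 and 12 (0.0532), and in limma-voom alone (0.0677) or with lane as a random block (0.0724).

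Next, ethanol with its diet was compared with chow in OO animals at day 20. The means of Pklr, Slc2a2, Pcx, Gys2 and Fbp1 were higher and those of G6pc, Pck1 and Ppargc1a lower with ethanol, and 0 of the 8 genes passed, where edgeR called 3.64% of all genes. Pklr stood at 302.2 ± 87.3 CPM (SD, n = 3) against 155.9 CPM in library 12, a log2 change of 0.95 ± 0.32 with an edgeR adjusted p of 0.132. Slc2a2 stood at 394.3 against 207.8 CPM, a log2 change of 0.92 ± 0.46 with an edgeR adjusted p of 0.309. Gys2 had a log2 change of 0.49 ± 0.16 and Pcx of 0.61 ± 0.24, with edgeR adjusted p of 0.129 and 0.193. At an unadjusted p under 0.05 edgeR counted 3 of the 8 genes and 2786 of all 14778. Without library 13, the log2 changes against library 12 alone were 1.17 for Pklr and 1.26 for Slc2a2.

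This comparison rests on library 12, the only control, whose exocrine pancreas markers were raised. Its summed macrophage markers stood at 2331.1 CPM, against 960.0 to 1458.5 CPM in the other OO libraries. Stellate cell and myofibroblast markers stood at 668.1 against 271.2 to 432.6 CPM, and neutrophil markers at 78.1 against 8.26 to 30.1 CPM. With ethanol, edgeR called 7 of 13 macrophage markers lower and 0 higher. The part of these markers in the levels of the 8 genes was not tested. With the day 23 chow library in place of library 12 the log2 changes were -0.12 for Pklr, -0.12 for Slc2a2, -0.41 for Gys2 and -0.07 for Fbp1. The direction of these 4 genes against chow therefore depended on which single control was used. Among other genes, Trib3 (an inhibitor of insulin signalling through Akt) and Cebpa (a hepatocyte transcription factor) rose among 32 control genes, the glycolysis enzyme gene Eno1 rose among 25, and Got1 fell among 25 genes of gluconeogenesis. With the day 23 control 3 of these 4 calls were lost, at log2 changes of 0.50 for Eno1, -0.07 for Cebpa and 1.66 for Trib3, with edgeR adjusted p of 0.469, 0.912 and 0.151, and Got1 remained called at -1.33 (0.019). All 4 calls were lost in a fit of these 4 libraries alone, with edgeR adjusted p of 0.302 for Got1, 0.311 for Eno1, 0.299 for Cebpa and 0.201 for Trib3. Cebpa and Eno1 also lost theirs without library 14 or 15 and Trib3 without library 14.

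Ethanol was also compared with chow in CCl4 animals, where each group had more than 1 library. Fbp1 rose, with 697.6 ± 22.8 CPM (SD, n = 2) under chow and 1245.7 ± 130.5 CPM (SD, n = 3) under ethanol, and it was the single member of 8 that passed. The log2 change was 0.84 ± 0.14, a 1.79-fold rise, with an edgeR adjusted p of 0.0171, where 1.27% of all genes were called. The log2 changes of Pklr (0.81 ± 0.25) and Pcx (0.61 ± 0.18) had edgeR adjusted p of 0.183 and 0.184, and that of Slc2a2 (0.63 ± 0.35) of 0.543. G6pc, at 349.1 ± 247.1 against 484.1 ± 8.38 CPM, had a log2 change of -0.47 ± 0.63, smaller than its standard error. Groups did not overlap in Fbp1, Pcx, Ppargc1a, Pklr and Slc2a2, 5 of the 8 genes, and in 26.6% of all genes.

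The call of Fbp1 was lost in edgeR without library 16 (adjusted p 0.131), without library 17 (0.128), without library 20 (0.0526) and in a fit of these 5 libraries alone (0.114), while its log2 change stayed between 0.77 and 0.92. Beside it, Pfkl (the liver phosphofructokinase, 1.71-fold) and Gpi1 (glucose phosphate isomerase, 1.86-fold) rose among 25 glycolysis enzymes. Ppp1r3c, a subunit that directs a phosphatase to glycogen, fell by 1.84 on the log2 scale among 18 glycogen genes. All 3 calls were lost without library 16, 17, 19 or 20, that of Ppp1r3c also without library 18, and those of Pfkl and Gpi1 in a fit of these 5 libraries alone, with edgeR adjusted p of 0.152 and 0.134. No gene of 25 in gluconeogenesis and pyruvate handling and none of 32 control genes was called by edgeR. Cell type markers moved in the same comparison, and 3 of 13 pericentral markers were called lower, with sums of 1071.8 to 1860.7 CPM under ethanol against 2588.2 to 2731.7 CPM under chow. Summed neutrophil markers ran from 54.5 to 161.9 CPM against 217.5 to 223.1 CPM, and summed lymphocyte markers from 4.55 to 6.84 CPM against 11.6 to 14.2 CPM, with 0 of 8 and 0 of 9 markers called by edgeR. Their part in the change of Fbp1 was not tested.

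CCl4 was compared with OO under ethanol in 3 libraries against 3, the comparison with the most calls. Fbp1 was again the member that passed, at 1245.7 ± 130.5 against 945.7 ± 54.6 CPM (SD, n = 3 each). Its log2 change was 0.40 ± 0.12, a 1.32-fold difference, with an edgeR adjusted p of 0.0359. This was 1 of 8 genes, where 23.7% of all genes were called. The other 7 genes had negative log2 changes, from -0.59 ± 0.27 for Pck1 to -0.08 ± 0.57 for G6pc, and none of the 7 passed. Gys2 (-0.31 ± 0.11) was nearest with an edgeR adjusted p of 0.0678, and its groups did not overlap. Groups did not overlap in 2 of the 8 genes and in 36.3% of all genes. The call of Fbp1 was lost in edgeR without library 13 (adjusted p 0.0612), 15 (0.116), 19 (0.0813) or 20 (0.0921), with no filter on low counts (0.061) and in a fit of these 6 libraries alone (0.0914). Other calls appeared when a library was left out. Pck1 was called lower without library 14 (log2 change -0.81, edgeR adjusted p 0.0455) or 19 (-0.88, 0.0335), and Pcx without library 19 (-0.56, 0.0258). Slc2a2 was called lower without library 13 (-0.59, 0.0317) and Gys2 without library 20 (-0.41, 0.0348). Over all genes, 3981, 2869, 3491 and 2435 were called without library 13, 14, 19 and 20. The fit of all libraries called 3509.

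Other genes of these pathways were called in the same comparison, where 23.7% of all genes were. Among 25 glycolysis enzymes 7 rose and 1 fell, a share near that of all genes, and those that rose were Hk1, Hk2, Hk3, Hkdc1, Pfkp, Pfkfb4 and Pkm. These are not the isoforms typical of hepatocytes, which use Pfkl and Pklr. Pkm, the pyruvate kinase of most other cells, stood at 113.4 ± 22.6 CPM against 41.5 ± 10.7 CPM in OO (SD, n = 3 each) and rose 2.72-fold with an edgeR adjusted p of 0.00156. The liver isoform Pfkfb1, which sets the level of fructose 2,6-bisphosphate, fell by 0.79 on the log2 scale, and with library 18 left out it did not pass, with an edgeR adjusted p of 0.056. In gluconeogenesis and pyruvate handling 3 of 25 genes rose, among them the mitochondrial carboxykinase gene Pck2 (1.94-fold), and 5 fell, among them the glycerol channel gene Aqp9 (1.60-fold lower).

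Of 32 control genes 9 fell and 0 rose in CCl4 with ethanol, so the share called in either direction was near the 23.7% of all genes. Gcgr, the glucagon receptor, was at 161.2 ± 15.5 against 270.9 ± 22.4 CPM (SD, n = 3 each), and Cebpa was at 124.1 ± 11.5 against 207.9 ± 17.5 CPM. Both were 1.68-fold lower, with edgeR adjusted p of 0.00125 and 0.000826. Nr0b2, a nuclear repressor that responds to bile acids, fell by 1.15 on the log2 scale. Of 18 glycogen genes 6 fell and 2 rose, and the branching enzyme gene Gbe1 fell by 0.87 on the log2 scale. The median log2 change was -0.38 over the control genes and -0.49 over the glycogen genes, against -0.04 over all genes tested. Over all 4 lists (glycolysis enzymes, gluconeogenesis and pyruvate handling, glycogen and control genes), 17 called genes were selected by smallest adjusted p. Of these 17, 14 kept their call on leaving out each library in turn and 13 did so under every alternative.

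Cell type markers differed in the same comparison. Of 13 macrophage markers 9 were higher and 1 lower, with sums of 2146.6 to 2533.0 CPM in CCl4 against 985.5 to 1225.4 CPM in OO. Of 11 stellate cell and myofibroblast markers 6 were higher, and of 8 neutrophil markers 7 were higher. Of 8 cholangiocyte markers 3 were higher, with sums of 393.4 to 603.1 CPM against 50.2 to 85.7 CPM. Of 13 pericentral hepatocyte markers 8 were lower and 1 higher, with sums of 1071.8 to 1860.7 CPM against 5211.4 to 9065.8 CPM. Their part in the changes of the enzyme and control genes was not tested.

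**Figure D2:**
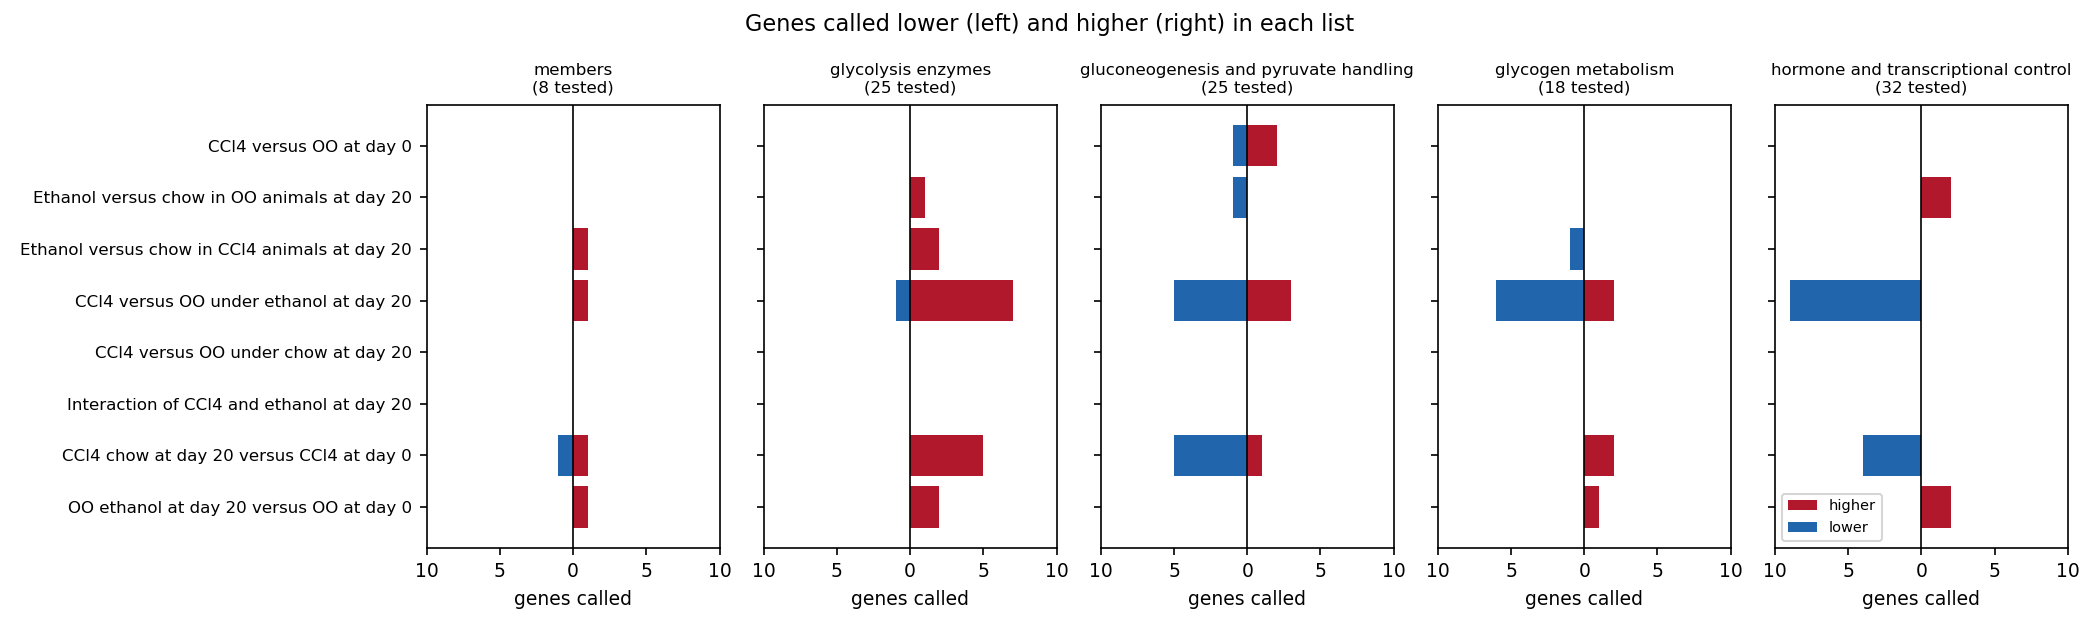
Number of genes called lower (left of 0) and higher (right of 0) at an edgeR adjusted p under 0.05 (x axis) in each comparison (y axis), for the 8 genes and 4 lists of related genes. CCl4 against OO under ethanol shows 7 glycolysis enzymes higher and 9 control genes lower, while 1 of the 8 genes was called there.

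Under chow, CCl4 was compared with OO in 2 libraries against library 12 alone. Pck1 stood at 1135.4 ± 292.9 CPM (SD, n = 2) against 2001.3 CPM, a log2 change of -0.82 ± 0.39 with an edgeR adjusted p of 0.745. The other log2 changes ran from -0.43 to 0.08, and 0 of the 8 genes passed, where edgeR called 0.189% of all genes. At an unadjusted p under 0.05 edgeR also counted 0 of the 8, and 1018 of all 14778 genes. None of the 4 lists of related genes held a called gene in edgeR. With the day 23 chow library as control, Gys2 was called lower with a log2 change of -0.81 and an edgeR adjusted p of 0.0319, where the day 20 control gave 0.08.

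Whether the ethanol response differed between CCl4 and OO animals was tested as an interaction. None of the 8 genes passed, where 0.0135% of all genes did. For Fbp1 the response to ethanol was 0.53 ± 0.22 larger in CCl4 animals on the log2 scale, with an edgeR adjusted p of 0.523. With the day 23 chow library as control the difference was 0.90 for Fbp1, 0.93 for Pklr and 0.76 for Slc2a2, where the day 20 control gave -0.15 for Pklr and -0.29 for Slc2a2. With the day 20 control, Fbp1 was the 1 gene of the 8 with an unadjusted p under 0.05 in edgeR, where 1215 of all 14778 genes were. Fbp1 was thus called in CCl4 animals and not in OO animals without a difference between them being shown. The median difference over the 8 genes was -0.07 and over all genes -0.03.

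The day 20 CCl4 chow libraries were compared with CCl4 at day 0, which covers the second phase at the lower dose. Fbp1 fell 1.64-fold, to 697.6 ± 22.8 CPM against 1141.4 ± 84.1 CPM at day 0 (SD, n = 2 each). Pklr rose 1.96-fold, to 151.0 ± 19.4 CPM against 76.9 ± 2.67 CPM at day 0. The log2 changes were -0.71 ± 0.15 and 0.97 ± 0.27, with edgeR adjusted p of 0.0137 and 0.0384. These were 2 of 8 genes, where 11.5% of all genes were called. Pck1 (-0.86 ± 0.33), Ppargc1a (-0.67 ± 0.20), Pcx (-0.44 ± 0.20) and Gys2 (-0.40 ± 0.14) had edgeR adjusted p of 0.12, 0.0567, 0.185 and 0.0875. Groups did not overlap in 7 of the 8 genes and in 60.6% of all genes.

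Both calls were lost on leaving out any of the 4 libraries. The edgeR adjusted p for Fbp1 was 0.13, 0.0698, 0.0586 and 0.0738 without library 3, 4, 16 and 17, and for Pklr it was 0.178, 0.201, 0.168 and 0.0777. Among 25 glycolysis enzymes 5 rose, led by Hk3, Pfkfb4 and Pfkfb3, and in gluconeogenesis and pyruvate handling 5 of 25 fell, with Got1 at 113.1 ± 13.0 against 324.5 ± 9.86 CPM, and 1 rose. Of 32 control genes 4 fell, a share near the 11.5% of all genes called, among them Gcgr (1.5-fold lower) and Klf15 (1.48-fold lower), a factor induced in fasting. All 13 macrophage markers and all 8 neutrophil markers were higher, with neutrophil sums of 217.5 to 223.1 against 6.72 to 13.9 CPM. Over the 4 lists of related genes, 12 called genes were selected by smallest adjusted p. Of these 12, Hk3, Pfkfb4 and Got1 kept their call on leaving out each library in turn. The calls of Gcgr and Klf15 were lost without any of the 4 libraries. Of 13 periportal markers 5 were lower, with a median log2 change of -0.87. The part of these markers in the changes of Fbp1 and Pklr was not tested.

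OO animals with ethanol at day 20 were compared with OO animals at day 0, a second control for the ethanol arm that differs from it also in time and diet. Pklr rose 3.48-fold, to 302.2 ± 87.3 CPM (SD, n = 3) with 86.9 ± 2.09 CPM (SD, n = 2) at day 0, a log2 change of 1.80 ± 0.26 and an edgeR adjusted p of 0.00476. It was the 1 gene of 8 that passed, where 2.12% of all genes were called. Slc2a2 (0.90 ± 0.35), Gys2 (0.46 ± 0.13) and Fbp1 (0.35 ± 0.14) had edgeR adjusted p of 0.225, 0.0953 and 0.234. Groups did not overlap in 3 of the 8 genes, Pklr, Gys2 and Fbp1, and in 32.3% of all genes. Khk (fructokinase, 1.81-fold), Gbe1 (2.45-fold), Aldoa (1.91-fold), Gpi1 (1.89-fold) and Trib3 (3.40-fold) also rose, and each of these 5 calls was lost without library 1, without library 2 and in a fit of these 5 libraries alone.

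This comparison alone had libraries of both groups in the same sequencing lane, as the names of the deposited tables give it. In lane 1 Pklr was at 85.4 CPM in library 1 and 330.3 CPM in library 15, and in lane 3 it was at 88.4 CPM in library 2 and at 204.3 and 371.9 CPM in libraries 13 and 14. In both lanes the day 20 ethanol libraries stood above the day 0 library. Day and diet also differed between them, and the part of lane was not tested. The call was lost in edgeR without library 1 (adjusted p 0.0786) or library 2 (0.0591), with log2 changes of 1.77 and 1.82. Without library 13, Slc2a2 passed with a log2 change of 1.24 and an edgeR adjusted p of 0.00995. That fit called 601 of all genes, against 313 in the fit of all libraries.

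**Figure D3:**
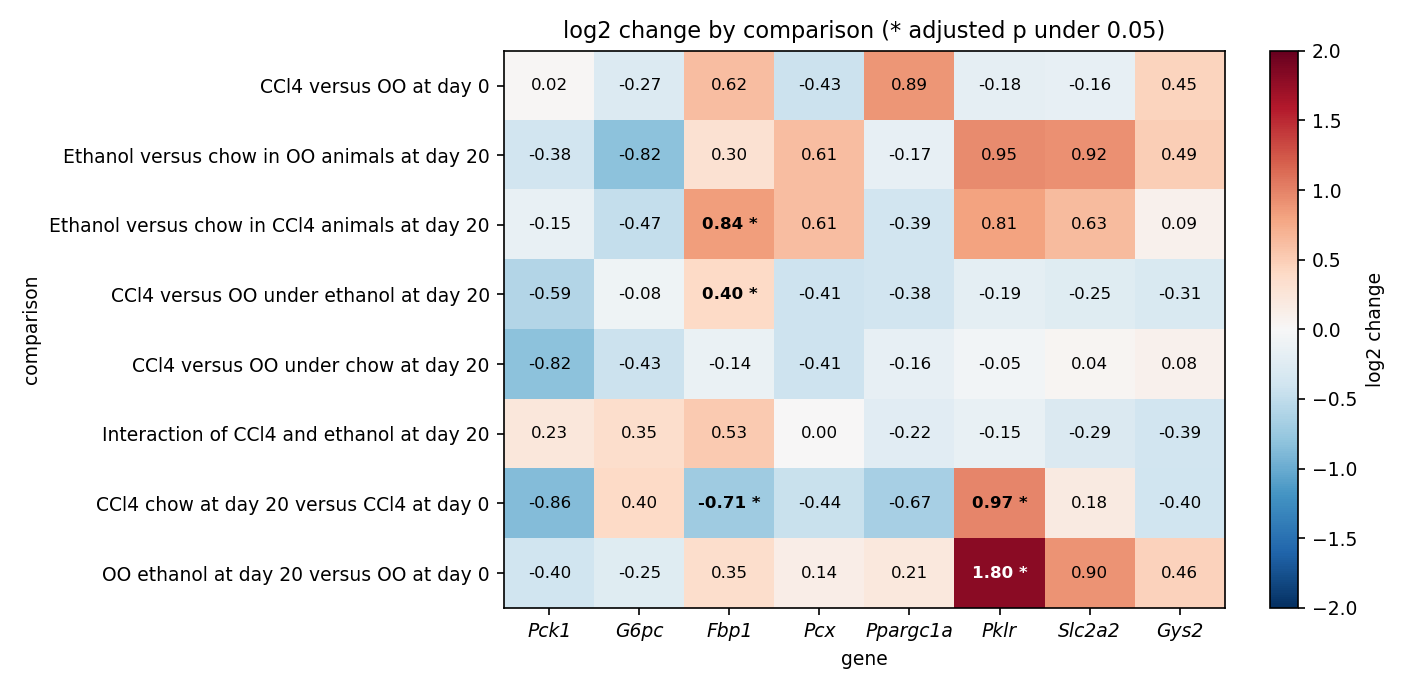
Log2 change of each of the 8 genes (columns) in the 8 comparisons (rows), with colour from blue (lower in the first group named) to red (higher) and an asterisk at an edgeR adjusted p under 0.05. The 5 marked cells are Fbp1 under ethanol in CCl4 animals, Fbp1 in CCl4 against OO under ethanol, Fbp1 and Pklr between day 20 and day 0 in CCl4 animals, and Pklr in OO animals with ethanol against day 0. Comparisons share groups, so their values are not independent.

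The day 23 pair has no replicates, so its differences are given without a test. Library 6, with ethanol, held 2.43 times the Pck1 level of library 5, 1.83 times that of G6pc, 1.79 times that of Ppargc1a and 1.5 times that of Fbp1. Pcx stood at a ratio of 1.3, Slc2a2 at 1.21 and Gys2 at 1.06, and Pklr was 1.56 times higher in library 5. Pck1 was the 1 gene of 8 past 2-fold, where 5.78% of 10088 genes were. Library 6 was the highest of all 15 for Pck1, G6pc, Fbp1, Ppargc1a and Gys2, 5 of the 8 genes, and for 11.6% of the 10088 genes. Its exocrine pancreas markers, at 209.5 CPM, were raised, and their part in these levels was not tested.

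Levels of pairs of the 8 genes were correlated over the 15 libraries on the log2 scale, 28 pairs in all. Pklr and Slc2a2 varied together most closely, with Pearson's r of 0.80 (permutation p 0.00064, adjusted over the pairs 0.0179) and Spearman's rho of 0.81 (permutation p 0.0005, adjusted 0.014). Without the 2 libraries farthest from the median of Pklr r was 0.76. Deviations from the group mean over 12 libraries, which hold 7 degrees of freedom, gave an r of 0.88, without a test. Libraries 13 and 14, at 204.3 and 371.9 CPM of Pklr and 185.9 and 553.1 CPM of Slc2a2, show the relation within OO animals with ethanol. The order was opposite in CCl4 animals with chow. Libraries 16 and 17 stood there at 164.7 and 137.4 CPM of Pklr and at 196.5 and 230.0 CPM of Slc2a2.

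Pck1 and Ppargc1a had an r of 0.72 (permutation p 0.00237, adjusted 0.0332) and a rho of 0.71 (permutation p 0.00421, adjusted 0.0589). Without the 2 libraries farthest from the median of Pck1 r was 0.43, without the 2 farthest from that of Ppargc1a it was 0.50, and deviations from the group means gave 0.08. The relation was not seen among libraries of a group. Library 6, alone in its group, was the highest of all for both genes, at 6317.1 CPM of Pck1 and 18.9 CPM of Ppargc1a. Pck1 and G6pc, both enzymes of glucose output, had an r of 0.32 (permutation p 0.227, adjusted 0.396) and a rho of 0.26 (permutation p 0.34, adjusted 0.513). Inside groups their deviations had an r of -0.73, and libraries 13 and 19, the lowest of their groups for G6pc, were the highest of them for Pck1. The 15 libraries share groups, so they are not independent draws of a single population.

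**Figure D4:**
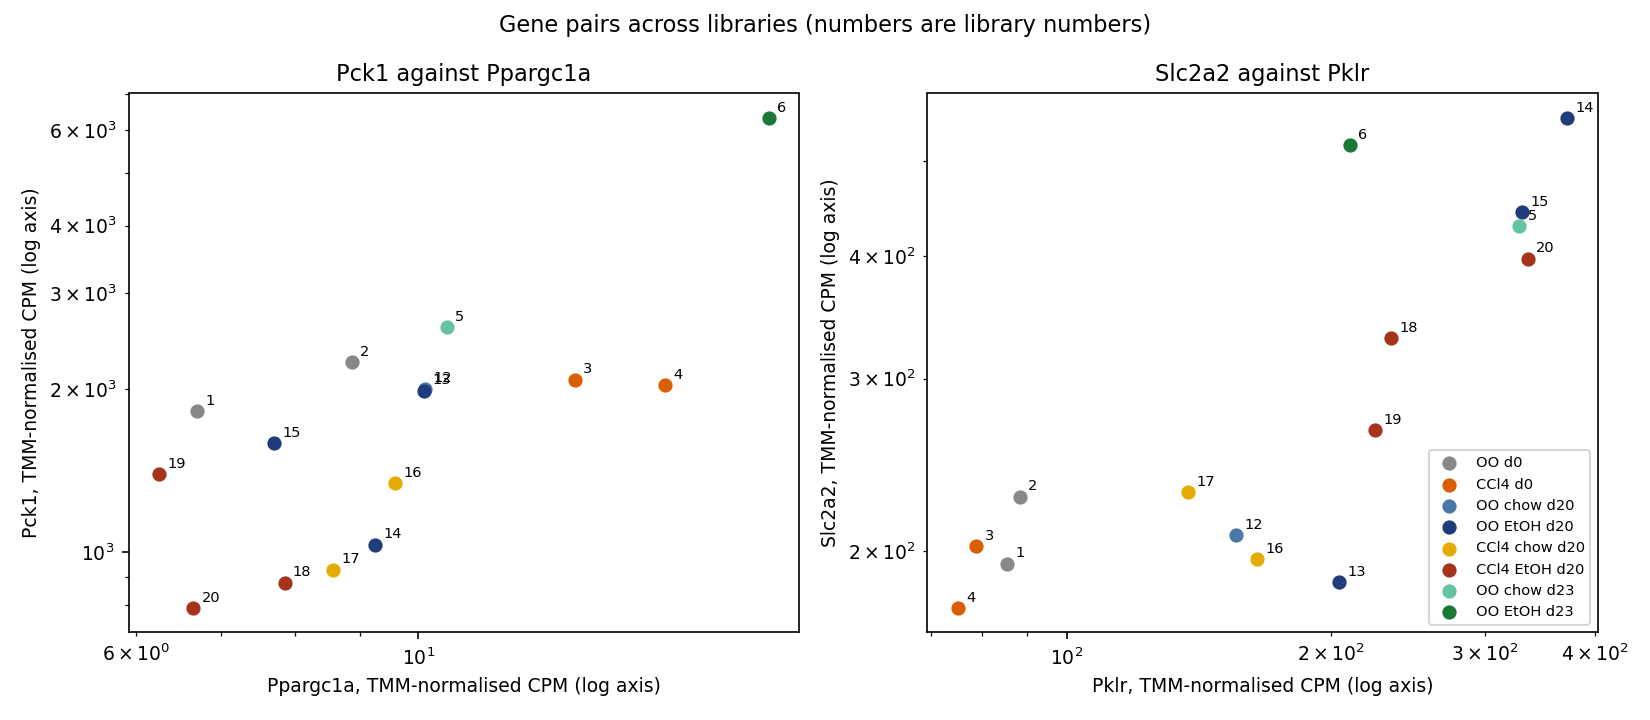
Levels of Pck1 against Ppargc1a (left) and of Slc2a2 against Pklr (right), in TMM-normalised CPM on log axes, with 1 point per library, coloured by group and numbered as in the labels. Library 6 stands alone at the top right on the left side, and the right side shows Slc2a2 highest in library 14 and at 185.9 CPM in library 13.

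For each of the 8 genes the 3 most similar of 9831 named genes were found by Pearson's r over the 15 libraries, given as a description. Closest to Pck1 were Ctcflos (r 0.97) and Ctcfl (r 0.92), which are its neighbours on chromosome 2, with gaps of 19.8 and 33.5 kb to Pck1. Ctcflos was at 40.3 CPM in library 6 and between 3.85 and 17.2 CPM in the others. Pklr was followed by Hcn3 (r 0.95), which overlaps it, and by Khk (0.93) and Tkfc (0.92), both enzymes of fructose breakdown. Khk ran from 157.2 CPM in library 3 to 367.2 CPM in library 14, the library that was also highest for Pklr. Khk was also on the list of control genes, which was not used to rank similar genes but was written with earlier results of these data known.

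Slc2a2 was followed by Sbk1, Xpot and Pitpnc1, with r from 0.89 to 0.90, and Pcx by Ppm1l (0.96), Epb41 and Nrbp2. Ppargc1a was followed by Lpin2 (0.91), a phosphatidate phosphatase, and by Cyp4f15 and Sft2d2. For Gys2 the genes were Npc1 (0.91), Sqrdl and Rabgap1l. Fbp1 and G6pc had no match as close, with highest r of 0.82 for Fuca1 and 0.87 for Wdr6.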

How the data were processed

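The authors deposited whole-number read counts for gene symbols. Per the submitters' processing notes, reads were aligned with GSNAP and the build was mm10, and DESeq2 1.12.3 is named. Which program and annotation counted the reads, and whether by strand, is not given in the sources used here. The 5 entries for reads given to no gene were left out, and genes held 41.35% to 53.0% of the reads listed. The names of the deposited tables say 28D where the labels say day 20 or 23, and the labels were followed. Coordinates and exon lengths are from GENCODE M21 on mm10.

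The 8 genes, the lists of related genes and markers and the tests were chosen with earlier results of these data known. The filterByExpr function kept 14778 genes, whose counts, after TMM scaling, were fitted in edgeR 4.0.16 (R 4.3.3) with 1 mean for each of 8 groups, which left 7 residual degrees of freedom. A group with 1 library is assumed to vary like the others. For each of 8 comparisons the quasi-likelihood test of edgeR was run, p-values were adjusted by Benjamini-Hochberg over all genes, and a gene is called at an adjusted p under 0.05. The test was tested on simulated data. Beside the 8 genes, the text names genes from, for each list and direction, the up to 3 called genes with the smallest adjusted p, provided that a group averaged 5 CPM or more and that the groups did not overlap. Hk1, Hk2, Hkdc1 and Pfkp, called but outside these 3, were named after their values were seen. Similar genes are the 3 with the highest Pearson's r among named genes averaging 5 CPM or more. Correlations used log2 CPM with a prior count of 2 and permutations of libraries. Alternatives were RLE scaling, 2 other low-count filters, DESeq2 1.42.0, limma-voom (limma 3.58.1) alone or with a random effect of lane, fits of the compared libraries alone, the day 23 chow library added to or used for the day 20 one, no libraries 6 and 12, and each library left out.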

Additional observations from a re-analysis of the deposited data

How the results depend on the processing

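Over 64 pairs of a gene and a comparison, 832 alternative values were computed for the 8 genes: 747 kept their direction and their side of the threshold, 24 gained a call, 20 lost one and 41 changed sign. With DESeq2 the number of the 8 genes called was 3 when CCl4 was compared at day 0, 2 and 3 for ethanol within the OO and the CCl4 arm, 4 for day 20 against day 0 in CCl4 animals and 2 for OO with ethanol against day 0. DESeq2 also called more of all genes, 729, 962, 416, 1976 and 643 in that order, where the main edgeR fit called 304, 538, 187, 1694 and 313. With the compared libraries alone the number of the 8 genes called was 4 at day 0 and 4 for day 20 against day 0. It was 0 for ethanol within the CCl4 arm and 0 for the CCl4 contrast under ethanol. Of all genes, these fits called 2240, 2355, 99 and 2319 in that order. CCl4 under ethanol had 0 with no filter, and CCl4 under chow had 1 with the day 23 chow library as control. On leaving out each library in turn, the counts ran from 0 to 2 for ethanol in OO animals, 0 to 1 for ethanol in CCl4 animals, 0 to 2 for CCl4 under ethanol, 0 to 0 for day 20 against day 0, and 0 to 2 for OO with ethanol against day 0. Signs changed with the choice of OO chow control, with libraries left out and, for values near 0, with a few other settings. With the day 23 library in its place, ethanol in OO animals gave log2 changes of -0.07 for Fbp1, -0.12 for Pklr, -0.12 for Slc2a2, -0.41 for Gys2 and -0.07 for Cebpa. CCl4 under chow then gave -1.01 for Slc2a2 and -0.81 for Gys2, and the interaction gave 0.93 for Pklr, 0.76 for Slc2a2 and 0.50 for Gys2. With both chow libraries pooled, Gys2 stood at -0.03 for ethanol in OO animals and, like Slc2a2 at -0.58, was negative for CCl4 under chow at -0.43, and the interaction gave 0.49 for Pklr, 0.33 for Slc2a2 and 0.12 for Gys2. The interaction of Pcx was -0.01 with RLE scaling, with DESeq2 and with the compared libraries alone, and -0.00385 with no filter, and that of G6pc was -0.05 with limma-voom and lane as a random block. Values whose sign changed when a library was left out ran from -0.12 to 0.18 for Pck1 with CCl4 at day 0. For ethanol in CCl4 animals they ran from -0.45 to 0.14 for Pck1, -0.95 to 0.01 for G6pc and -0.01 to 0.17 for Gys2. For CCl4 under ethanol they ran from -0.56 to 0.40 for G6pc and -0.59 to 0.07 for Slc2a2, and for CCl4 under chow from -0.18 to 0.09 for Pklr and -0.07 to 0.15 for Slc2a2. In the interaction they ran from -0.06 to 0.52 for Pck1, -0.13 to 0.83 for G6pc, -0.16 to 0.14 for Pcx, -0.36 to 0.03 for Pklr and -0.63 to 0.03 for Slc2a2, and for OO with ethanol against day 0 from -0.50 to 0.11 for G6pc. Of all these values, Gys2 at -0.81 and, without library 13, Slc2a2 at -0.59 were called, with edgeR adjusted p of 0.0319 and 0.0317. Beyond the choice of control and the libraries left out, the cause was not tested.

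Over all genes, the number called ran across the settings other than leaving out a library from 223 to 2240 for CCl4 at day 0 (304 as reported), 16 to 962 for ethanol in OO animals (538), 99 to 416 for ethanol in CCl4 animals (187), 2319 to 3660 for CCl4 under ethanol (3509), 28 to 378 for CCl4 under chow (28), 0 to 148 for the interaction (2) and 93 to 643 for OO with ethanol against day 0 (313). The fit of the compared libraries alone gave 2240, 16, 99, 2319, 378, 0 and 93, in that order. On leaving out each library in turn the counts ran from 52 to 121, 253 to 1554, 49 to 141, 2223 to 3981, 11 to 20, 0 to 21 and 73 to 601 in the same order, and from 262 to 796 for day 20 against day 0 in CCl4 animals (1694). No paired analysis was possible because the labels give every library a number of its own, so groups share no replicate numbers. Depth limits Ppargc1a most, with 73 to 500 reads per library. Groups of 1 to 3 libraries limit every comparison.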

Other observations

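Library 13, an OO library with ethanol at day 20 that was low for G6pc (155.7 CPM) and Slc2a2 (185.9 CPM), was the highest of the 15 libraries for 14 of 32 hormone and transcription control genes (43.8%), and for 14.2% of all 10088 genes with a mean of at least 5 CPM. Irs2, an adaptor of the insulin receptor, stood there at 36.4 CPM against 8.35 and 12.2 CPM in libraries 14 and 15 of its group, and Igfbp1, a secreted binding protein of insulin-like growth factors, at 142.4 against 21.8 and 38.4 CPM. Library 6 was also high for both genes, at 36.0 CPM of Irs2 and 378.4 CPM of Igfbp1, and it held 33.2 CPM of Ppp1r3g, a glycogen-targeting phosphatase subunit that stood at no more than 1.29 CPM in every other library. Igfbp1 was at 115.4 and 107.0 CPM in CCl4 animals at day 0 against 18.8 and 32.5 CPM in OO animals. These genes were chosen after their values had been seen, and no test was run on them.

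Got1, the aspartate aminotransferase gene, stood between 202.7 and 365.4 CPM in the CCl4 day 0, OO chow and day 23 libraries, and between 75.1 and 148.5 CPM in the other 10. This split was formed after the values had been seen. It mixes arms, diets and days, and no test was run on it.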
